A study of Mus musculus with 26 samples.

Results

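The glutathione S-transferase genes outside the alpha and mu classes were followed here in mouse liver after exposure to benoxacor. They are the pi class genes Gstp1, Gstp2 and Gstp3, the theta class genes Gstt1, Gstt2 and Gstt3, the zeta class gene Gstz1, the omega class gene Gsto1, the kappa class gene Gstk1 and the microsomal gene Mgst1. Members were picked by symbol in the combined count table, which gave 10 genes of 54532, and no measured value entered the choice. Liver RNA was sequenced from 26 C57BL/6 mice that received benoxacor by oral gavage on 3 consecutive days, with tissue collected 24 hours after the final gavage. Benoxacor is a herbicide safener, a compound added to herbicide products to protect the crop. The doses were 0, 0.5, 5 and 50 mg/kg, in 5, 5, 8 and 8 mice, and all 4 groups shared strain, gavage schedule and housing, with bedding mixed to even out the gut microbiome and acclimatisation given as 4 to 8 weeks. The labels name no sex and no vehicle. Mouse numbers fall into a run starting at 601 (15 mice, with 4, 3, 4 and 4 at the rising doses) and a run starting at 619 (11 mice, with 1, 2, 4 and 4). Nothing in the labels explains the split. Numbers ascend with dose inside each run, so dose and number order cannot be told apart. Mice are named below by dose and by their number within the dose, in accession order.

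Glutathione S-transferases join the tripeptide glutathione to reactive chemicals, which makes them more soluble and easier to export. In plants, safeners such as benoxacor are known for raising the transferases that detoxify the herbicide. In liver, the pi class enzyme is abundant in male mice, the theta class acts on small halogenated compounds, and the zeta class enzyme is maleylacetoacetate isomerase, a step of tyrosine breakdown. The omega class reduces disulfides and arsenic compounds, the kappa class sits in mitochondria and peroxisomes, and Mgst1 is a membrane protein of another family that also reduces lipid hydroperoxides. The comparison of each dose with 0 mg/kg asked whether the transferase transcripts differ in exposed livers.

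Total counts ran from 5433074 to 9088626 per liver (median 7105531), and the counts behind a single member ran from 27 (Gstp2) to 38847 (Mgst1). All 10 members passed the filter on low counts, with at least 27 reads in every liver. Of the 8 hepatocyte markers listed, 7 were in the table and all of these were abundant, with Alb at 33686 to 106224 CPM, where CPM is the read count scaled to library size by TMM. Mice 1 and 2 at 0.5 mg/kg had the highest Saa1 of the acute phase, at 2311 and 3233 CPM. Mouse 8 at 5 mg/kg had 3690 CPM over the 8 steroid-producing cell markers, against at most 140.8 CPM in the other mice. The same liver had 88.0 CPM over the pancreatic acinar markers, against at most 1.02 CPM in the other mice, and the highest sum of stellate and fibroblast markers, 467 CPM. Mouse 6 at 5 mg/kg had the lowest sum of male-biased liver genes, 2108 CPM, and the highest sum of female-biased liver genes, 180 CPM. In bulk liver, fewer cells of a type and less RNA per cell cannot be told apart.

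The pi class sequences decide how far its 3 genes can be separated by read counting, and the first 120 coding bases are shown for that reason. Gstp1 and Gstp2 were identical at 621 of 633 coding bases (98.1%), with 12 differences and an identical run of 303 bases. Gstp3 matched Gstp1 at 71.6% of bases. Capitals mark bases that differ from Gstp1 in this stretch, 6 in Gstp2 and 21 in Gstp3 (GENCODE M21 transcripts on mm10, chromosome 19).
Gstp1: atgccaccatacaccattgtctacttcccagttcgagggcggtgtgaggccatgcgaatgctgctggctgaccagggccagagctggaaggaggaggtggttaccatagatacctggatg
Gstp2: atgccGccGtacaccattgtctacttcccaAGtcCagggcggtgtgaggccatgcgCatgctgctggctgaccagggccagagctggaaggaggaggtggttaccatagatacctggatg
Gstp3: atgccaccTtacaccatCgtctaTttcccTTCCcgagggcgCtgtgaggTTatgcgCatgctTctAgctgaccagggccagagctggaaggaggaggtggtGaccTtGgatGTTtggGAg
Of all 50-base windows of the Gstp1 transcripts, 33.7% also occurred in another gene, in Gstp2 for 33.7% and in the pseudogene Gstp-ps for 20.3%. For Gstp2 the share was 54.3%, and for Gstp3 it was 0%. Counts of Gstp1, Gstp2 and Gstp-ps are therefore uncertain where reads could be split between them, and the handling of such reads is not given in the sources used here. Gstt1, Gsto1, Gstk1 and Mgst1 shared 0% of windows with another gene. Gstz1 shared 9.39%, mainly with the overlapping opposite-strand genes Pomt2 and Gm6566, which had 5083 and 601 reads in all, while Gstz1 had 113326. Gstt3 shared 12.5%, nearly all with the overlapping Gm20441, which had 1 read in all. Gsto1 overlaps the opposite-strand gene Cfap43, which had 166 reads in all against 13086 for Gsto1.

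Promoter windows are shown for Gstt1, Gstz1, Gsto1 and Gstk1, the genes of the 4 most closely correlated pairs of members over the mice, and for Mgst1, the gene in all 4 pairs called negative. RefSeq windows on GRCm38.p6, from 250 bases before to 50 bases after the start, were found for 9 of the 10 members. Capitals mark the matches of a search on both strands. The motifs were the core of the antioxidant response element, spelled TGACNNNGC, the GC box, spelled GGGCGG, the TATA box, spelled TATAAA, and the CCAAT box, which is spelled as it is named.
Gstt1, chr10:75797682-75797981, minus strand: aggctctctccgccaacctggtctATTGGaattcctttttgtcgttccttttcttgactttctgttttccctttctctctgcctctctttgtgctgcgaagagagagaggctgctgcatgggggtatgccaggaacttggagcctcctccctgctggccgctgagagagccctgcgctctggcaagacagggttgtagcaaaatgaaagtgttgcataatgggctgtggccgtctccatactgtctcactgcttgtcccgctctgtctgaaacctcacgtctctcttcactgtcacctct
Gstz1, chr12:87146915-87147214, plus strand: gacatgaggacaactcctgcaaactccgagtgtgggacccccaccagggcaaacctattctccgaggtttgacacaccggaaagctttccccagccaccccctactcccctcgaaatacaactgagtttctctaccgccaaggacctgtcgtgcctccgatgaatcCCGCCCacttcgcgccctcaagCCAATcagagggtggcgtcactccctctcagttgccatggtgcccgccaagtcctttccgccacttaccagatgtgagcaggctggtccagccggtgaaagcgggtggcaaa
Gsto1, chr19:47854723-47855022, plus strand: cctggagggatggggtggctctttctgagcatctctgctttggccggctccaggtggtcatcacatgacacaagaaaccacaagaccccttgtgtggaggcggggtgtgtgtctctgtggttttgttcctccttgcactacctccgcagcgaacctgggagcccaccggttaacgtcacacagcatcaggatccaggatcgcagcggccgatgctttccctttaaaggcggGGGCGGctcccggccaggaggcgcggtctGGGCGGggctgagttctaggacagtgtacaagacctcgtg
Gstk1, chr6:42245685-42245984, plus strand: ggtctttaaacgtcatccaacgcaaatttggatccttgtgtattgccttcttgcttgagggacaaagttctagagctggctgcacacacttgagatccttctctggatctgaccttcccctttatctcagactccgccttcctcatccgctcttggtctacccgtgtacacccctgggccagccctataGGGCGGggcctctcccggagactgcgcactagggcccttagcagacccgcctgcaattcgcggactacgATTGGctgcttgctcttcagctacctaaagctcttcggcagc
Mgst1, chr6:138140277-138140576, plus strand: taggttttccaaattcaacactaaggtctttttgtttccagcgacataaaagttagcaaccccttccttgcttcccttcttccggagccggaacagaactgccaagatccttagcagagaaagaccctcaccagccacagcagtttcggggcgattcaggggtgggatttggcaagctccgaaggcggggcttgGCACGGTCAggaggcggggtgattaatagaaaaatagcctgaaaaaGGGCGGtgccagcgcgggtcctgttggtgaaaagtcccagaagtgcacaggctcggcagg
The 4 genes of the closest pairs shared no motif of those searched, and Gstt3, whose level was also correlated with each of them, held CCAAT alone. Gstz1, Gsto1 and Gstk1 held GGGCGG, and Gstt1 did not. GGGCGG stood in 7 of the 9 members, in 8 of their 12 windows, and in 35.7% of 32851 windows of all genes. Gstt1, Gstz1 and Gstk1 held CCAAT, and Gsto1 did not. CCAAT stood in 5 of the 9 members, in 7 of their 12 windows, and in 37.4% of all windows. TGACNNNGC stood in Mgst1 alone among the 9 members, 56 bases upstream of the start. This was 1 of the 12 member windows, against 12.4% of all windows. TATAAA stood in 0 of the 9 members, in 0 of their 12 windows, and in 13.6% of all windows. These matches are letters in a window and were not measured as binding.

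Per length of exon, Mgst1 was the most abundant member in every mouse, with a median of 1765 CPM per kilobase over the 26 livers. Gstp1 came next at 548 CPM per kilobase followed by Gstz1 at 115, and these 3 ranges did not overlap. Below them stood Gstt1 at 78.1, Gstk1 at 38.9 and Gsto1 at 33.9 CPM per kilobase. Gstp2 at 10.96, Gstt2 at 9.48 and Gstp3 at 9.20 CPM per kilobase could not be ordered firmly, since Gstp2 was above Gstt2 in 16 of 26 mice and Gstt2 above Gstp3 in 16 of 26. Gstt3 was lowest at 3.59 CPM per kilobase. From Gstz1 down, the ranges of all neighbours in this order overlapped. Mgst1 alone made up 54.3 to 84.2% (median 65.4%) of the summed CPM of the 10 genes, and Gstp1 made up 7.10 to 26.1% (median 16.1%).

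**Figure D1:**
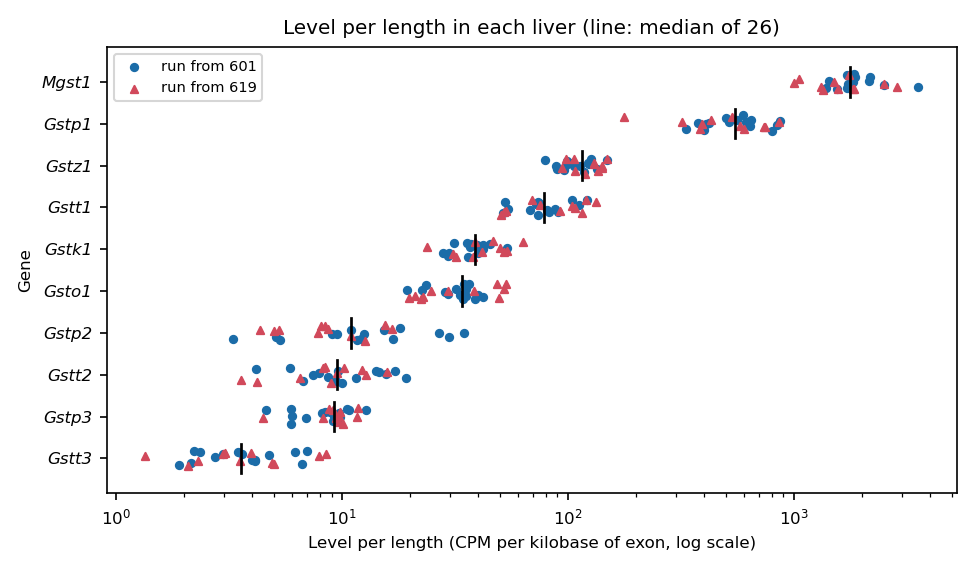
Level per length of the 10 transferase genes in each of the 26 livers, in CPM per kilobase of exon on a log scale, with circles for the run from 601, triangles for the run from 619 and a line at the median. Mgst1, Gstp1 and Gstz1 do not overlap each other, with medians of 1765, 548 and 115 CPM per kilobase. From Gstz1 down, all neighbours in the order overlap.

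No member passed an adjusted p of 0.05 at any dose in the edgeR quasi-likelihood fit, where p-values were adjusted by Benjamini-Hochberg over all 14415 genes tested. At 50 against 0 mg/kg 0 of 10 members were called, where 0.00694% of all genes were called, and 1 member (Gstp3) had an unadjusted p under 0.05. At 5 against 0 mg/kg 0 of 10 were called, against 0% of all genes, and 2 members (Gstt1 and Gstz1) had an unadjusted p under 0.05. At 0.5 against 0 mg/kg 0 of 10 were called, against 0% of all genes, and 4 members (Gstz1, Gstk1, Gstp3 and Gstt1) had an unadjusted p under 0.05. Over all genes the share with an unadjusted p under 0.05 was 5.11%, 6.18% and 6.99% in these comparisons. DESeq2 and limma-voom also called 0 members in each. The 3 comparisons share the same 5 mice at 0 mg/kg, so a control that stands high or low moves all 3 together. Gstz1, Gstk1 and Gstt1 were also closely correlated over the mice (r from 0.83 to 0.87 between them), so these counts of members are not counts of independent genes. The median log2 fold change of the members was 0.20, 0.21 and 0.36 in the comparisons of 50, 5 and 0.5 mg/kg with 0 mg/kg. Over all genes it was 0.0054, 0.012 and 0.0049. For the 7 hepatocyte markers tested it was 0.21, 0.32 and 0.31, and for 11 alpha and mu class genes 0.10, 0.041 and 0.12.

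**Figure D2:**
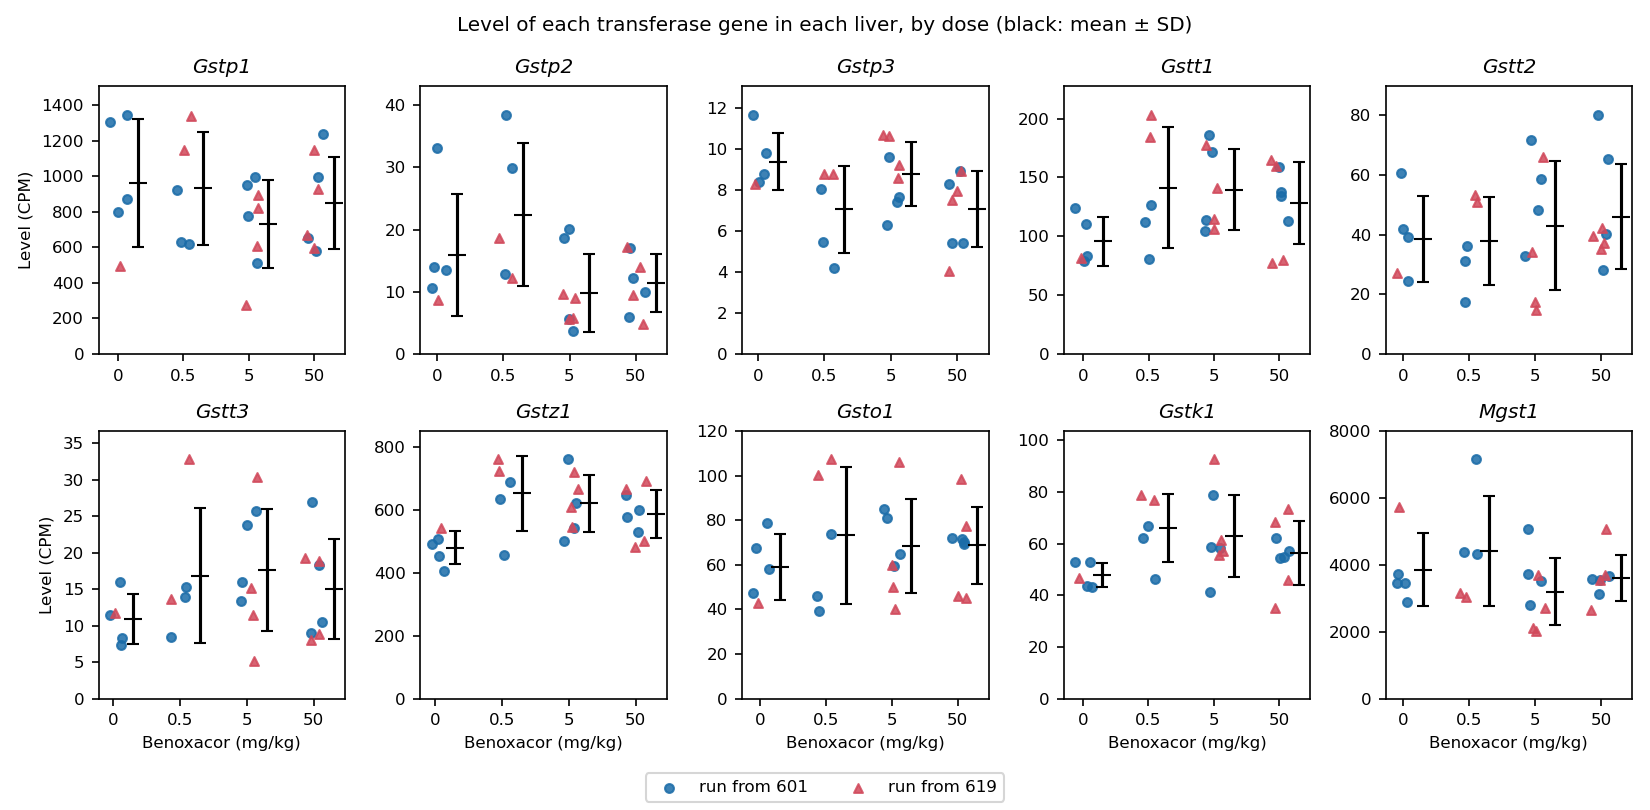
Level of each of the 10 transferase genes in each liver (TMM-scaled CPM, axis from 0) by benoxacor dose in mg/kg, with circles for the run from 601, triangles for the run from 619 and black bars for the mean ± SD of 5, 5, 8 and 8 mice. Gstz1 and Gstk1 at 0 mg/kg sit in narrow ranges, 405 to 539.8 and 43.3 to 53.0 CPM, with most exposed mice above them, while Gstp1 and Mgst1 overlap broadly at all doses.

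The pi class gave lower means at 50 than at 0 mg/kg for all 3 genes, and none of the differences passed the test. Gstp1 (ENSMUSG00000060803; chromosome 19, 4035407 to 4037985, minus strand) encodes the main pi class enzyme and had 871, 802, 1348, 1308 and 497 CPM in the 5 mice at 0 mg/kg and 633, 618, 925, 1338 and 1147 CPM in the 5 mice at 0.5 mg/kg. It had 276 to 998 CPM (median 801) in the 8 mice at 5 mg/kg and 582 to 1238 CPM (median 799) in the 8 mice at 50 mg/kg. All exposed mice lay within the control range except mouse 6 at 5 mg/kg, whose 276 CPM was the lowest of the 26 livers. The log2 fold change at 50 against 0 mg/kg was -0.15 (SE 0.29, 95% confidence interval -0.74 to 0.45), and it differed in sign between the runs, at 0.76 for the 619 run, which has a single control, and -0.32 for the 601 run.

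Gstp2 (ENSMUSG00000038155; chromosome 19, 4040285 to 4046023, minus strand) encodes the near-identical second pi enzyme and had 33.0, 13.5, 14.0, 10.6 and 8.72 CPM in the 5 mice at 0 mg/kg and 38.5, 29.9, 12.9, 18.6 and 12.2 CPM in the 5 mice at 0.5 mg/kg. It had 3.65 to 20.1 CPM (median 7.44) in the 8 mice at 5 mg/kg and 4.86 to 17.2 CPM (median 11.1) in the 8 mice at 50 mg/kg. Mouse 1 at 0 mg/kg and mice 1 and 2 at 0.5 mg/kg stood above all the others, at 33.0, 38.5 and 29.9 CPM, and the rest did not exceed 20.1 CPM. The log2 fold change at 50 against 0 mg/kg was -0.28 (SE 0.41, 95% confidence interval -1.12 to 0.55), and it was 0.10 without mouse 1 at 0 mg/kg, so its direction rests on that liver. The 2 mice at 0.5 mg/kg are those with the highest Saa1, and the part of the acute phase in their Gstp2 level was not tested. Gstp3 (ENSMUSG00000058216; chromosome 19, 4057477 to 4059569, minus strand) encodes another pi class protein. It had 9.80, 8.40, 8.78, 11.7 and 8.28 CPM in the 5 mice at 0 mg/kg and 8.05, 4.18, 5.45, 8.80 and 8.78 CPM in the 5 mice at 0.5 mg/kg. It had 6.29 to 10.7 CPM (median 8.90) in the 8 mice at 5 mg/kg and 4.06 to 8.91 CPM (median 7.73) in the 8 mice at 50 mg/kg. Under every control were 3 of 5 mice at 0.5 mg/kg, 3 of 8 mice at 5 mg/kg and 5 of 8 mice at 50 mg/kg. Its log2 fold change at 50 against 0 mg/kg, -0.48 (SE 0.19, 95% confidence interval -0.88 to -0.083), had the smallest unadjusted p of the 10 members (0.0196; adjusted p = 0.883), and counts of 28 to 93 reads per liver stand behind it. At 0.5 against 0 mg/kg it was -0.48 (SE 0.22, 95% confidence interval -0.92 to -0.038) (adjusted p = 0.666), and in the run from 619 alone, with 1 control, it was 0.11.

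The theta class gave higher means at every dose than at 0 mg/kg for Gstt1 and Gstt3, and no difference passed the test. Gstt1 (ENSMUSG00000001663; chromosome 10, 75783813 to 75798584, minus strand) encodes an enzyme that conjugates small halogenated compounds and had 79.0, 82.8, 124, 111 and 81.4 CPM in the 5 mice at 0 mg/kg and 80.5, 112, 127, 184 and 203 CPM in the 5 mice at 0.5 mg/kg. It had 104 to 186 CPM (median 128) in the 8 mice at 5 mg/kg and 77.5 to 165 CPM (median 136) in the 8 mice at 50 mg/kg. Above the highest control lay 3 of 5 mice at 0.5 mg/kg, 4 of 8 at 5 mg/kg and 5 of 8 at 50 mg/kg, and the groups overlapped. The log2 fold change was 0.41 (SE 0.23, 95% confidence interval -0.056 to 0.87) at 50 against 0 mg/kg (adjusted p = 0.984) and 0.53 (SE 0.23, 95% confidence interval 0.060 to 0.99) at 5 against 0 mg/kg (adjusted p = 0.780). Gstt2 (ENSMUSG00000033318; chromosome 10, 75831114 to 75837424, minus strand) encodes a second theta enzyme and had means of 38.6 ± 14.3, 37.7 ± 14.7, 43.0 ± 21.5 and 45.97 ± 17.6 CPM at 0, 0.5, 5 and 50 mg/kg (SD, n = 5, 5, 8 and 8). Its log2 fold change at 50 against 0 mg/kg was 0.33 (SE 0.35, 95% confidence interval -0.40 to 1.06), and the mice of all 4 doses overlapped. Gstt3 (ENSMUSG00000001665; chromosome 10, 75774115 to 75781414, minus strand) encodes another and had means of 10.9 ± 3.40, 16.8 ± 9.28, 17.6 ± 8.32 and 14.97 ± 6.87 CPM at 0, 0.5, 5 and 50 mg/kg (SD, n = 5, 5, 8 and 8). The log2 fold change of Gstt3 at 50 against 0 mg/kg was 0.46 (SE 0.38, 95% confidence interval -0.33 to 1.25), the largest positive estimate among the members, with a wide interval. At every dose some Gstt3 values lay within the controls' 7.28 to 15.9 CPM.

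Gstz1 and Gstk1 had the tightest controls, and most exposed mice lay above them without passing the test. Gstz1 (ENSMUSG00000021033; chromosome 12, 87147165 to 87164723, plus strand) encodes the isomerase of tyrosine breakdown and had 405, 453, 492, 507 and 539.8 CPM in the 5 mice at 0 mg/kg and 456, 686, 635, 759 and 722 CPM in the 5 mice at 0.5 mg/kg. It had 501 to 759 CPM (median 615) in the 8 mice at 5 mg/kg and 482 to 690.4 CPM (median 587) in the 8 mice at 50 mg/kg. Above the highest control lay 4 of 5 mice at 0.5 mg/kg, 7 of 8 at 5 mg/kg and 5 of 8 at 50 mg/kg. The log2 fold change of Gstz1 was 0.26 (SE 0.14, 95% confidence interval -0.031 to 0.55) for 50 mg/kg, 0.34 (SE 0.14, 95% confidence interval 0.050 to 0.63) for 5 mg/kg and 0.42 (SE 0.15, 95% confidence interval 0.10 to 0.74) for 0.5 mg/kg, each against 0 mg/kg (adjusted p = 0.984, 0.780 and 0.576). The last had the smallest unadjusted p of any member in any comparison, 0.0116. Gstk1 (ENSMUSG00000029864; chromosome 6, 42245935 to 42250447, plus strand) encodes the kappa enzyme and had 43.7, 43.3, 53.0, 52.7 and 46.9 CPM in the 5 mice at 0 mg/kg and 46.1, 62.1, 66.7, 78.7 and 76.9 CPM in the 5 mice at 0.5 mg/kg. It had 41.2 to 92.6 CPM (median 58.5) in the 8 mice at 5 mg/kg and 35.1 to 73.5 CPM (median 56.0) in the 8 mice at 50 mg/kg. Above the highest control lay 4 of 5 mice at 0.5 mg/kg, 7 of 8 at 5 mg/kg and 6 of 8 at 50 mg/kg, while 1 mouse at 5 mg/kg and 1 mouse at 50 mg/kg were under every control. Gstk1 gave log2 fold changes of 0.20 (SE 0.17, 95% confidence interval -0.15 to 0.55) at 50 mg/kg, 0.35 (SE 0.17, 95% confidence interval -0.0025 to 0.71) at 5 mg/kg and 0.43 (SE 0.19, 95% confidence interval 0.047 to 0.82) at 0.5 mg/kg (adjusted p = 0.997, 0.780 and 0.651).

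The hepatocyte markers and total counts of the same livers are set beside these 2 genes. Among the 7 markers Alb had a median of 52799 CPM over the 26 livers, against 857 to 4168 CPM for the others, and so made up most of their sum. The summed level of the 7 hepatocyte markers had medians of 54669, 94894, 67747 and 77608 CPM at 0, 0.5, 5 and 50 mg/kg. Total counts had medians of 6751636, 8585300, 7740178 and 6764342 reads in the same order, and all 5 controls had at most 7249192. Neither measure followed the order of the doses, and the 2 genes did not either. Over the rising doses, median Gstz1 was 492, 686, 615 and 587 CPM and median Gstk1 46.9, 66.7, 58.5 and 56.0 CPM. Each of these had its highest median at 0.5 mg/kg. Over the 26 mice, r with the hepatocyte sum was 0.85 for Gstz1 and 0.83 for Gstk1, and with total count 0.67 and 0.66. None of the 7 hepatocyte markers was called at any dose, and at an unadjusted p under 0.05 there were 2 at 0.5 mg/kg and 0 at 5 and 50 mg/kg. The part of these measures in the Gstz1 and Gstk1 differences was not tested.

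Gsto1 (ENSMUSG00000025068; chromosome 19, 47854970 to 47864790, plus strand) encodes the omega enzyme and had means of 59.0 ± 14.8, 73.4 ± 30.8, 68.4 ± 21.2 and 68.8 ± 17.1 CPM at 0, 0.5, 5 and 50 mg/kg (SD, n = 5, 5, 8 and 8). Its log2 fold change at 50 against 0 mg/kg was 0.21 (SE 0.25, 95% confidence interval -0.31 to 0.72), and the doses overlapped broadly. Mgst1 (ENSMUSG00000008540; chromosome 6, 138140316 to 138156755, plus strand) encodes the microsomal enzyme and had 3723, 3476, 3465, 2887 and 5742 CPM in the 5 mice at 0 mg/kg and 7167, 4393, 4321, 3044 and 3174 CPM in the 5 mice at 0.5 mg/kg. It had 2010.4 to 5070.4 CPM (median 3150.2) in the 8 mice at 5 mg/kg and 2664 to 5075 CPM (median 3570.2) in the 8 mice at 50 mg/kg. The highest level of the 26 livers was 7167 CPM in mouse 1 at 0.5 mg/kg and the second highest 5742 CPM in mouse 5 at 0 mg/kg, so neither of these livers was at 5 or 50 mg/kg. The log2 fold change at 50 against 0 mg/kg was -0.058 (SE 0.23, 95% confidence interval -0.53 to 0.42), and it was 0.26 without mouse 5 at 0 mg/kg.

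**Figure D3:**
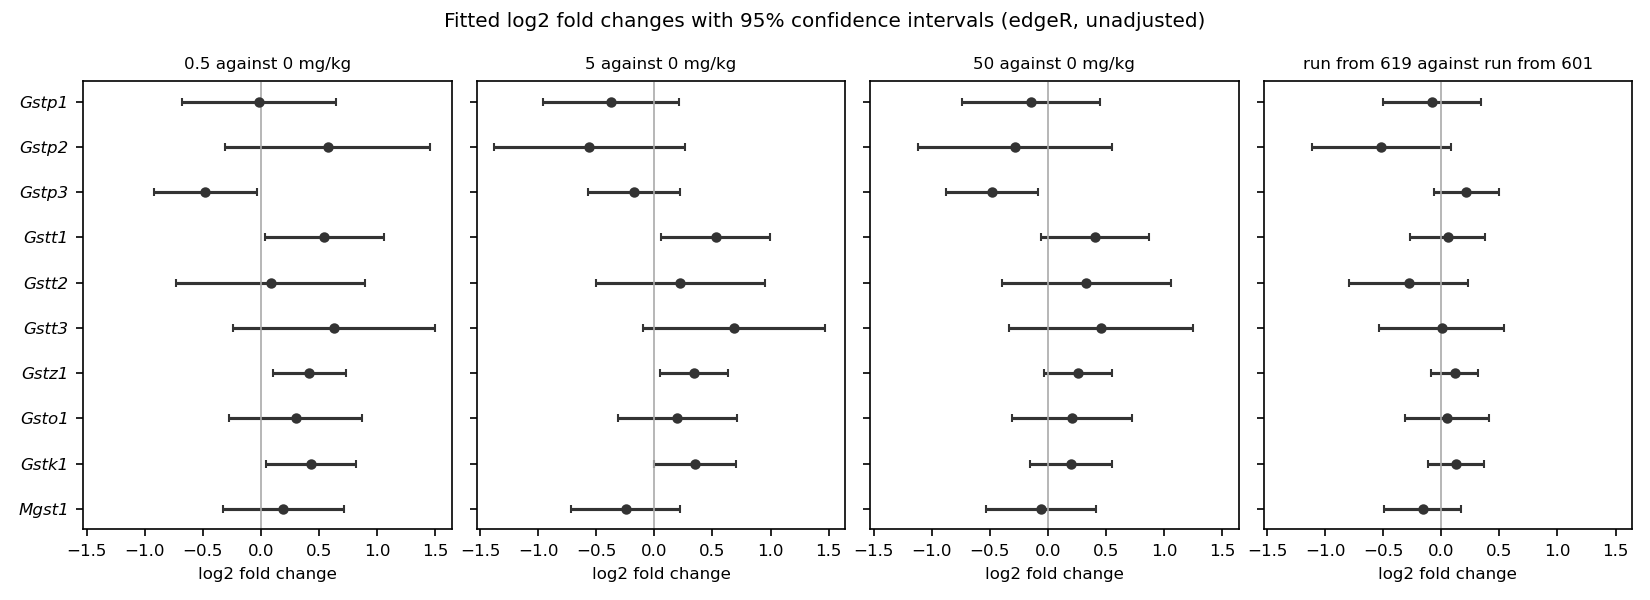
Log2 fold change of each transferase gene at 0.5, 5 and 50 mg/kg against 0 mg/kg, as points with 95% confidence intervals from the fit over 26 mice, and a line at 0. At 50 against 0 mg/kg the estimates run from -0.48 (Gstp3) to 0.46 (Gstt3), and no gene passed an adjusted p of 0.05 at any dose.

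Between 50 and 5 mg/kg, the doses with 4 mice in each run, 0 of 10 members were called, against 0% of all genes, and 0 members had an unadjusted p under 0.05. The smallest p among the members belonged to Gstp3, with a log2 fold change of -0.31 (SE 0.17, 95% confidence interval -0.65 to 0.038), Gstk1 with -0.15 (SE 0.15, 95% confidence interval -0.45 to 0.15) and Mgst1 with 0.19 (SE 0.20, 95% confidence interval -0.22 to 0.60) (adjusted p = 0.962 for each). A trend over the 4 dose ranks called 0 of 10 members, against 0.0139% of all genes. Its smallest p belonged to Gstp3 at -0.11 per rank (SE 0.065), Gstp2 at -0.22 (SE 0.14) and Gstt1 at 0.10 (SE 0.076) on the log2 scale. Gstz1 and Gstk1, whose differences were larger at 0.5 than at 50 mg/kg, had slopes outside the leading 3.

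The run of mouse numbers made no call among the members either. With dose in the fit, 0 of 10 members passed an adjusted p of 0.05 for the run from 619 against the run from 601, against 0.0902% of all genes. Gstp2 had the largest estimate, with 10.5 ± 4.59 CPM in the 11 mice from 619 and 16.4 ± 10.2 CPM in the 15 mice from 601 (SD) and a log2 fold change of -0.52 (SE 0.29, 95% confidence interval -1.11 to 0.079) (adjusted p = 0.699). The 3 livers above 21 CPM were all in the run from 601. Gstt2 (-0.28), Mgst1 (-0.16) and Gstp1 (-0.084) also had negative log2 fold changes, and Gstp3 (0.22), Gstk1 (0.13), Gstz1 (0.11), Gstt1 (0.055), Gsto1 (0.046) and Gstt3 (0.0052) had positive ones. Mgst1 averaged 3407 ± 1151 CPM in the run from 619 and 3899 ± 1074 CPM in the run from 601 (SD, n = 11 and 15). Gstz1 averaged 627 ± 96.6 CPM in the run from 619 and 560.3 ± 97.5 CPM in the run from 601. A test of whether the 50 against 5 mg/kg difference itself differs between the runs called 0 of 10 members, against 0% of 13418 genes. Its smallest p among the members belonged to Mgst1, with a difference of 0.60 (SE 0.35, 95% confidence interval -0.14 to 1.34) (adjusted p = 0.982), where the means were 3743 ± 997 CPM at 50 mg/kg against 2636 ± 774 CPM at 5 mg/kg for the 619 run (SD, n = 4 each). For the 601 run they were 3486 ± 240.2 CPM at 50 mg/kg against 3778 ± 952 CPM at 5 mg/kg (SD, n = 4 each). The 5 mg/kg mice of the 619 run include mouse 6, with the lowest male-biased sum, and mouse 8, with the high steroid-producing cell markers, at 2124 and 2010.4 CPM of Mgst1. Without both, the difference was 0.33, and with single mice left out it was 0.41 to 0.78. Gstp3 (-0.34) and Gstp2 (0.67) followed, and neither passed the test.

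The members differed in how much they varied between livers. Gstp2 spanned 10.5-fold from the lowest to the highest mouse, and its SD of log2 CPM, 0.84, exceeded that of 96.8% of tested genes. Gstt3 spanned 6.32-fold, Gstt2 5.403-fold, Gstp1 4.89-fold and Mgst1 3.57-fold. Gstz1 was the steadiest at 1.88-fold, with an SD of 0.25 against a median of 0.34 over all tested genes.

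Over the 26 mice, the levels of Gstt1, Gstt3, Gstz1, Gsto1 and Gstk1 were positively correlated in all 10 pairs of these genes, with r from 0.53 to 0.87. These genes were grouped from the same correlations, so the 10 calls describe the group and do not test it. Gstt2, left outside it, was called with Gstt3 (r 0.73), Gsto1 (0.66) and Gstt1 (0.49) but not with Gstk1 (0.21) or Gstz1 (0.15). The levels of Gstp1 and Gstp2 passed the test with none of the group for Pearson's r. Of the 45 pairs of members, 17 had an adjusted permutation p under 0.05 for Pearson's r of log2 CPM (100000 resamples, two-sided, Benjamini-Hochberg over the 45 pairs), 13 positive and 4 negative. Spearman's rho also gave 17, though not all the same pairs. It called Gstp1 with Gsto1 (r 0.35, rho 0.54, adjusted permutation p = 0.0167 for rho). It did not call Gstk1 with Mgst1 (rho -0.44, adjusted permutation p = 0.0638). All points share the library scaling. Of the member pairs, 37.8% reached the smallest absolute r called here, 0.47, against 14.9% of all pairs of tested genes. For each member singly, the share of all tested genes reaching that absolute r ran from 4.74% (Gstp2) to 38.4% (Gstt1). It was 36.7% for Gsto1, 34.5% for Gstk1, 32.3% for Mgst1, 27.8% for Gstz1 and 18.7% for Gstt3. For Gstz1 and Gstk1 r was 0.87 and rho 0.92 (adjusted permutation p = 9e-05 and 9e-05), with r at 0.87 without the 2 mice farthest from the median, 0.91 for the 619 run and 0.90 for the 601 run. For Gstt1 and Gsto1 r was 0.86 and rho 0.88 (adjusted permutation p = 9e-05 and 9e-05), with r at 0.85 without the 2 mice farthest from the median, 0.91 for the 619 run and 0.79 for the 601 run. The pair of Gstt1 and Gstk1 had an r of 0.85 and a rho of 0.84, and that of Gstt1 and Gstz1 0.83 and 0.83, each with an adjusted permutation p of 9e-05 for r. In the run from 619 these pairs had an r of 0.92 and 0.97, in the run from 601 0.75 and 0.77, and without the 2 farthest mice 0.82 and 0.80. Of the 10 pairs, 10 were called in the run from 619 alone and 5 in the run from 601 alone. The pairs of Gsto1 with Gstz1 (r 0.62) and with Gstk1 (r 0.73) had an r of 0.44 and 0.53 in the run from 601 (adjusted permutation p = 0.214 and 0.137), and Gstt3 kept a call there with Gstt1 alone of the other 4 genes. The unadjusted p of the 4 closest pairs, 1e-05, is the smallest the resamples can give. For Gstp1 and Gstp2, r was 0.22 and rho 0.34 (adjusted permutation p = 0.466 and 0.184), with r at 0.18 without the 2 mice farthest from the median, 0.33 for the 619 run and 0.10 for the 601 run.

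**Figure D4:**
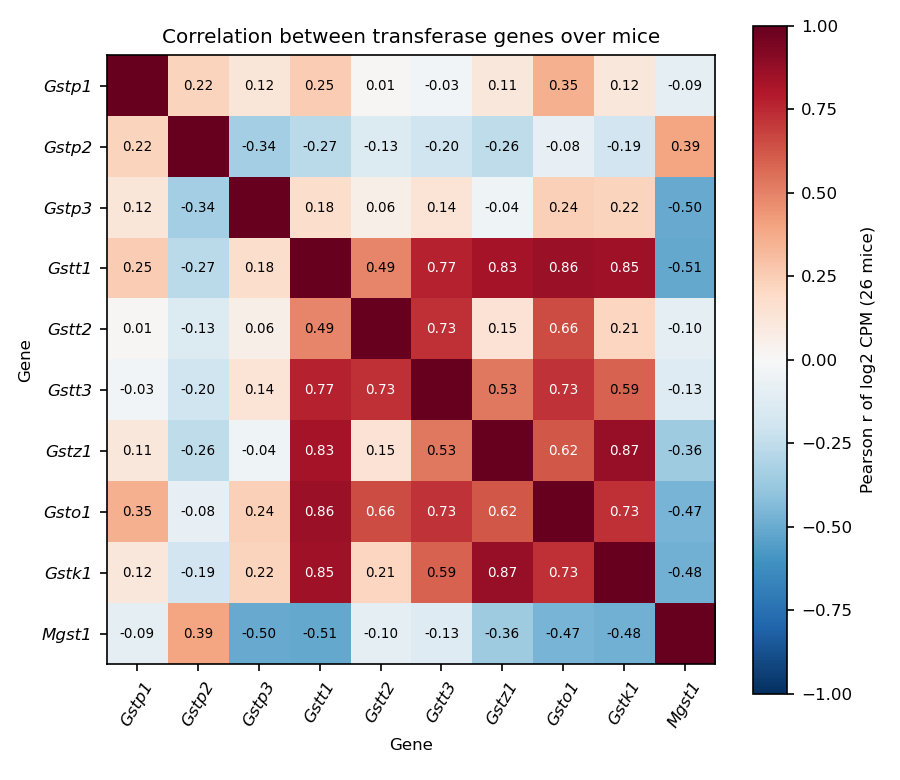
Pearson's r of log2 CPM between each pair of the 10 transferase genes over 26 mice, in red for positive and blue for negative values. Gstt1, Gstt3, Gstz1, Gsto1 and Gstk1 form a red block with r from 0.53 to 0.87, and Mgst1 is blue against them. The 3 pi genes have r at or below 0.35 with the block over all mice. The highest of these, Gstp1 with Gsto1, was called by Spearman's rho but not by Pearson's r.

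The 4 negative calls for Pearson's r were those of Mgst1 with Gstt1 (-0.51), Gstp3 (-0.50), Gstk1 (-0.48) and Gsto1 (-0.47). Within the runs alone, 12 pairs were called over the 11 mice from 619 and 6 over the 15 mice from 601. After dose and run were removed from the log2 values, 17 pairs were called, and without mice 6 and 8 at 5 mg/kg 18. Without these 2 mice Gstp1 was called with Gsto1 (0.70), Gstk1 (0.52), Gstt1 (0.51) and Mgst1 (-0.60), while the calls of Mgst1 with Gstp3 (-0.45) and Gstk1 (-0.43) and of Gstt1 with Gstt2 (0.46) were lost. When total count and the mitochondrial share of reads were removed as well, a setting chosen after the data were seen, 12 were called, among them 8 of the 10 pairs above, without those of Gstz1 with Gsto1 (0.38) and Gstt3 (0.45). None of the 4 negative calls of Mgst1 was left in that setting. Its r was then 0.36 with Gstt1, 0.37 with Gsto1 and 0.32 with Gstk1, all of the other sign, and -0.19 with Gstp3 (adjusted permutation p = 0.186, 0.186, 0.269 and 0.615). Mgst1 with Gstz1, at -0.36 over all mice (adjusted permutation p = 0.171), became a positive call at 0.60 (adjusted permutation p = 0.00558). Within a class, the pi genes had r of 0.22, 0.12 and -0.34 and the theta genes 0.77, 0.73 and 0.49.

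Gstt1, Gstz1, Gsto1, Gstk1 and Mgst1 also followed several measures of the library. By Pearson's r, Gstp3 was called with the mitochondrial share of reads alone and Gstt3 with male-biased liver genes alone. Each member was compared with 6 measures, 60 relations in all with p-values adjusted over the 60, and 24 had an adjusted permutation p under 0.05 for Pearson's r. These were 6 relations with the mitochondrial share of reads, 5 with total count and 5 with hepatocyte markers. A further 6 were with male-biased liver genes, 2 with acute phase genes and 0 with steroid-producing cell markers. The share of all tested genes called against the same measures was not computed, so these counts have no background beside them. By Spearman's rho 28 relations were called, 3 of them with the steroid-producing cell markers, which mouse 8 at 5 mg/kg leads by far: rho was 0.55 for Gstt1, 0.595 for Gstz1 and 0.61 for Gstk1 (adjusted permutation p = 0.0125, 0.00575 and 0.0042). Pearson's r for these 3 genes was 0.033, 0.062 and 0.099 over all mice and 0.60, 0.61 and 0.56 without the 2 mice farthest from the median. Outside mouse 8 at 5 mg/kg, most of this marker sum was Fdx1. It gave 74.6 of 79.1 CPM in mouse 1 at 0 mg/kg and 131.2 of 140.8 CPM in mouse 5 at 50 mg/kg, the lowest and highest of the other sums. The 3 rho values therefore say little about the other markers of that list, and the relation with Fdx1 alone was not tested. Mgst1 followed the share of reads from mitochondrially encoded genes, which ran from 3.83% to 10.4%: r was 0.88 and rho 0.88 (adjusted permutation p = 0.000150 and 0.000150), with r at 0.81 without the 2 mice farthest from the median, 0.87 for the 619 run and 0.90 for the 601 run. These reads are part of the total by which CPM is scaled. Gstz1 followed the summed CPM of the 7 hepatocyte markers, most of which is Alb: r was 0.85 and rho 0.89 (adjusted permutation p = 0.000150 and 0.000150), with r at 0.86 without the 2 mice farthest from the median, 0.85 for the 619 run and 0.86 for the 601 run. Gstk1 had an r of 0.83 with that sum, Gstt1 0.75, Gsto1 0.67 and Mgst1 -0.47 (adjusted permutation p = 0.000150, 0.000150, 0.00140 and 0.0370), while Gstp1 had 0.076 (0.806). The low value of Gstp1 depended on few livers, since r was 0.61 without the 2 mice farthest from the median of the sum. Its rho was 0.25, and its r was 0.13 for the 619 run and 0.11 for the 601 run. Against the mitochondrial share, Gstt1 had an r of -0.69, Gstk1 -0.67, Gsto1 -0.65, Gstz1 -0.60 and Gstp3 -0.48, opposite to Mgst1. The 6 relations called with the sum of male-biased liver genes were those of Gstk1 (-0.58), Gstt1 (-0.57), Gsto1 (-0.57), Gstt3 (-0.56), Gstz1 (-0.44) and Mgst1 (0.64). Of these, Gstk1 was not called by rho (-0.44). Mouse 1 at 0.5 mg/kg had the highest Mgst1 level, the highest mitochondrial share and the lowest total count of the 26. The part of RNA quality or depth in these relations was not tested.

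**Figure D5:**
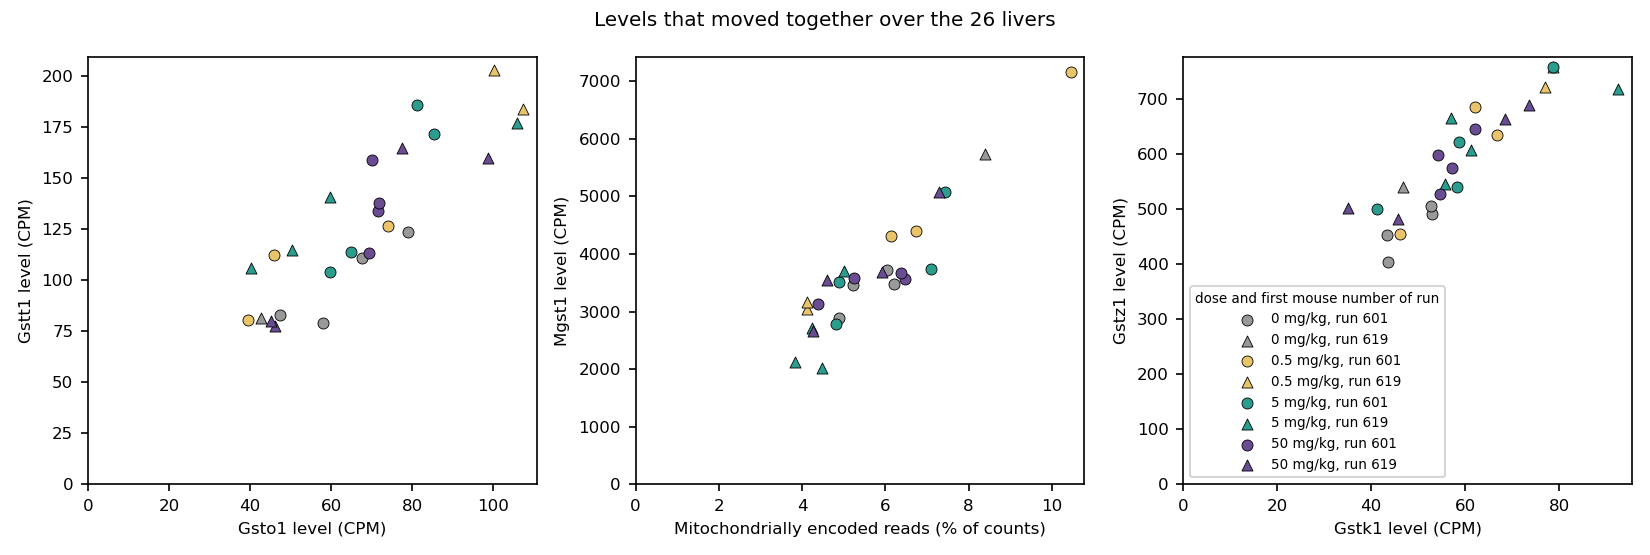
Levels in each of 26 livers: Gstt1 against Gsto1 (CPM), Mgst1 (CPM) against the percentage of reads from mitochondrially encoded genes, and Gstz1 against Gstk1 (CPM), with colour for dose and circles or triangles for the run from 601 or 619. All 3 panels rise together over mice of every dose, with r on the log2 scale of 0.86 for the first pair, 0.87 for the last and 0.88 for Mgst1 and the mitochondrial share.

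Among the tested genes outside the members, the pattern most like each member over the 26 mice was sought by Pearson's r of log2 CPM, as a description. Gstp1 was closest to its pseudogene Gstp-ps (r 0.92) and to Cyp2d9 (0.84), a male-predominant cytochrome P450. Gstp-ps stood at 6.03 to 11.3% (median 8.73%) of the Gstp1 level in each liver, and Gstp2 at 0.470 to 6.08% (median 1.40%). Gstp2 was closest to Gm47079 (0.75) and Tmem33 (0.73), and Gstp3 to Pigt (0.80) and Nr1d1 (0.77), a nuclear receptor of the circadian clock. Gstt1 was closest to Ak3 (0.94), a mitochondrial adenylate kinase, and Gm4737 (0.94). Gstt2 was closest to Gm16143 (0.83) and Abcg5 (0.81), a sterol exporter, and Gstt3 to Serpina6 (0.86), the glucocorticoid carrier of blood, and Maob (0.85). Gstz1 was closest to Adk (0.91), adenosine kinase, and Paics (0.89), an enzyme of purine synthesis. Gstk1 was closest to Atp5g1 (0.92), a subunit of ATP synthase, and Hgd (0.91), the dioxygenase that makes the Gstz1 substrate in tyrosine breakdown. Gsto1 was closest to Gm20528 (0.95) and Hsd17b11 (0.93), and Mgst1 to Selenot (0.95) and Ndufs4 (0.95), a subunit of respiratory complex I.

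The rest of the glutathione pathway gave no call at 50 against 0 mg/kg in edgeR. Of 11 alpha and mu class genes tested, 8 had positive and 3 negative log2 fold changes (median 0.10), with the smallest p for Gsta3 at 0.37 (SE 0.17, adjusted p = 0.955). Of 5 further family genes, 3 were positive and 2 negative (median 0.26), and Ptges, which encodes a prostaglandin E synthase, had -1.88 (SE 0.49, adjusted p = 0.635). Of 15 genes of glutathione synthesis and recycling, 9 were positive and 6 negative (median 0.011), with Cbs at -0.54, Glrx at 0.47 and Gclc, the catalytic subunit of the rate-limiting ligase, at -0.36 (adjusted p = 0.868, 0.877 and 0.9746). Of 16 genes that process or export the conjugates, 6 were positive and 10 negative (median -0.073), with Kyat1 at -0.26. Of the 5 tyrosine breakdown genes, Gstz1 included, 3 were positive and 2 negative (median 0.12). The 10 members had a median of 0.20, with 6 positive and 4 negative, and all 14415 genes had a median of 0.0054.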

How the data were processed

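Raw read counts per gene were deposited by the authors for the 26 livers, unscaled. The submitters' processing notes name bcl2fastq, featureCounts and mm10. Aligner, annotation, strand setting and treatment of reads matching several genes are not given in the sources used here, so overlapping genes and near-identical copies are uncertain. Coordinates are from GENCODE M21, in which 54495 of 54532 gene IDs were found.

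Counts were filtered with filterByExpr (14415 genes, 99.7% of reads), scaled by TMM and fitted in edgeR 4.0.16 (R 4.3.3) by the robust quasi-likelihood test over all 26 mice with dose and run, at an adjusted p of 0.05 over all genes tested. The run and dose interaction used the 16 mice at 5 and 50 mg/kg. Standard errors are each fold change over the root of its F statistic. CPM are TMM-scaled, and log2 CPM use a prior count of 2. Each library is labelled as a separate mouse. Permutations numbered 100000. The test was checked on simulated counts. Log2 fold changes are given for all members at 50 against 0 mg/kg and between runs, elsewhere for the 3 of smallest p, with some further values given as context. Of each pathway list, up to 3 genes of smallest p were eligible to be named. Members, lists and the libraries left out were chosen with earlier results of these data known. Alternatives were DESeq2 1.42.0, limma 3.58.1 (voom), other size factors, no filter, no run or dose term, single runs, only the doses compared, and leaving out mice.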

Additional observations from a re-analysis of the deposited data

Results flagged for a closer look

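In 3 of the 40 combinations of a member and a dose group, 1 mouse stood far from the others of its group by Dixon's criterion, which chance meets in about 1 of 20 groups. Gstp2 was 33.0 CPM in mouse 1 at 0 mg/kg, where the next highest control had 14.0 CPM. Gstt3 was 32.8 CPM in mouse 5 at 0.5 mg/kg, where the next highest had 15.3 CPM. Mgst1 was 5075 CPM in mouse 7 at 50 mg/kg, where the next highest had 3688 CPM, and this liver's mitochondrial share of 7.29% was also the highest at 50 mg/kg. The part of that share in its Mgst1 level was not tested.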

How the results depend on the processing

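No member was called in any of 182 recomputed counts. Of 35 log2 fold changes, recomputed 945 times, 904 kept their direction, 41 took the other sign in 10 of the 35, and 0 were called.

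Over all genes, DESeq2 called 2 at 50, 4 at 5 and 11 at 0.5 against 0 mg/kg, 2 at 50 against 5 mg/kg, 14 for the trend and 102 between runs. By limma-voom 1 was called for the trend and 6 between runs. The trend called 1 without mice 1 and 2 at 0.5 mg/kg, 1 without the run term and 0 in the run from 619 alone. At 50 against 0 mg/kg 0 were called without the run term, 4 in the run from 601 alone and 0 in the run from 619 alone. At 0.5 against 0 mg/kg 33 were called in the run from 601 alone, and 3 between runs without the dose term. With single mice left out, the counts were 0 to 1 at 50 and 0 to 3 at 5 against 0 mg/kg, 1 to 2 for the trend and 2 to 60 between runs. The 60 came without mouse 4 at 0 mg/kg or without mouse 7 at 50 mg/kg, and 18 of 26 omissions moved this count by over 1.5 times. The correlated pairs numbered 6 in the run from 601 alone and 13 to 17 with single mice left out.

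Between the runs, log2 fold changes took the other sign for Gstt3 (-0.090) and Gsto1 (-0.013) by limma-voom, and for Gstt1 (-0.072), Gstt3 (-0.13) and Gsto1 (-0.12) without mice 1 and 2 at 0.5 mg/kg. They did so for Gstp1 (0.052) without mice 6 and 8 at 5 mg/kg, and for Gstt1 (-0.13), Gstt3 (-0.29) and Gsto1 (-0.13) over the 5 and 50 mg/kg mice. In the run from 601 alone Mgst1 was 0.037 at 50 against 0 and -0.11 at 50 against 5 mg/kg. In the run from 619 alone, at 50 against 0 mg/kg, Gstp1 was 0.76 and Gstp2 0.40, at 0.5 against 0 mg/kg Gstp3 was 0.11, and the Gstt1 trend was -0.086. With single mice left out, the ranges that crossed 0 between runs were -0.046 to 0.13 for Gsto1, -0.17 to 0.048 for Gstp1, -0.014 to 0.12 for Gstt1 and -0.18 to 0.12 for Gstt3. At 50 against 0 mg/kg they were -0.42 to 0.10 for Gstp2 and -0.15 to 0.26 for Mgst1. The causes were not tested.

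The number of controls, 5 in all and 1 in the run from 619, limits every comparison with 0 mg/kg. The low counts of Gstp2, Gstp3 and Gstt3 limit the precision of single values.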
